A study of Mus musculus with 5 samples.

Results

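The genes that store and move iron and zinc were followed in mouse embryonic fibroblasts (MEFs) during 14 days in 5C medium. They are 10 of the 27729 genes listed for each library, taken by symbol. Ftl1 and Fth1 encode the ferritin chains, Tfrc, Slc40a1, Trf and Cp serve iron transport, Mt1 and Mt2 encode metallothioneins, and Slc30a1 and Slc39a14 encode metal transporters. The set was chosen by the day 0 count of Ftl1, which held more expected counts there than any other gene, with 48876 counts against 38442 for the next gene, S100a6. Per length, in TPM (transcripts per 1000000 transcripts), Ftl1 ranked 3 on that day. Because this level chose the set, the changes of Ftl1 against day 0 are a description.

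Total RNA was sequenced from MEFs of the outbred strain ICR before the change of medium (day 0, medium with fetal bovine serum) and on days 2, 5, 10 and 14 in 5C medium, which holds DMEM/F12, the supplement N2, bFGF, LIF, vitamin C and 2-mercaptoethanol. The MEFs came from mid-gestation embryos without head and internal organs, were passaged, and are a mixed primary culture and not a clone. The labels call the medium 6C, and their treatment text ends at day 15, although the last library is labelled day 14. There was 1 library per day, so no test between days was possible, no difference has a replicate check, and the day cannot be told apart from the medium or from the library. N2 supplies insulin, transferrin and selenite, so the medium itself contains an iron carrier. Iron carriers in this medium and in the serum medium of day 0 were not compared. The expected counts, RSEM's estimates of the reads from each gene, gave totals from 2253748 (day 2) to 3890334 (day 0), so that 3 counts stood for 0.771 to 1.33 per 1000000 counts. The RNA of the gene Gm42418 took 4.79% of the counts on day 2 and at most 0.109% in the other libraries. Of 10 fibroblast markers 4 were over 2-fold higher and 3 lower on day 14 than on day 0. Of the 13346 genes with 10 or more counts in 1 or more libraries, 24.5% were higher and 19.9% lower. Among the markers higher were Lum at 23.8 and 1486, Dcn at 102 and 2989 and Col3a1 at 1316 and 19193 normalized counts. The 3 lower were Fbln2 at 7189 and 1675, Thy1 at 744 and 284 and Twist2 at 272 and 40.8. Of 6 kept neuron markers 3 were over 2-fold higher and 3 lower, with Tubb3 at 22.1 and 161, Map2 at 196 and 45.6 and Stmn2 at 448 and 163, while Rbfox3 was at 0 in every library.

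As background, cells take up iron bound to transferrin (Trf) through the transferrin receptor (Tfrc), store it in ferritin shells of light (Ftl1) and heavy (Fth1) chains, of which the heavy chain oxidizes iron, and release it through ferroportin (Slc40a1) with the help of ferroxidases such as ceruloplasmin (Cp). When iron is scarce, the iron regulatory proteins encoded by Aco1 and Ireb2 bind hairpins called iron-responsive elements, which blocks translation of ferritin and ferroportin and protects the mRNA of the transferrin receptor from decay. Zinc is bound by the small cysteine-rich metallothioneins (Mt1, Mt2), exported by Slc30a1 and imported, as iron can be, by Slc39a14, and the zinc sensor Mtf1 switches on Mt1, Mt2 and Slc30a1 through metal-responsive elements.

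The iron-responsive elements are shown because the ferritins, ferroportin and the transferrin receptor carry them at opposite ends of their mRNAs. A search of the first listed transcript of each of the 10 genes in GENCODE M21, sense strand only, for the loop CAGTGN, with any base but G at its end, and with 5 paired bases on either side and a C before the stem found 7 matches in 4 genes. Of 21291 protein-coding transcripts searched the same way, whatever their length, 0.817% held a match. The coordinates are those of GRCm38, and the loop is in capitals. The first 3 lie in the 5′ untranslated region and the other 4 in the 3′ untranslated region of Tfrc.
Ftl1, chr7:45459779-45459806, minus strand: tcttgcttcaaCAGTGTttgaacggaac
Fth1, chr19:9982733-9982760, plus strand: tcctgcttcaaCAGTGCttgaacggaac
Slc40a1, chr1:45925465-45925492, minus strand: aacttcagctaCAGTGTtagctaagttt
Tfrc, chr16:32631220-32631247, plus strand: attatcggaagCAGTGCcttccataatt
Tfrc, chr16:32631599-32631626, plus strand: attatcgggagCAGTGTcttccataatg
Tfrc, chr16:32631664-32631691, plus strand: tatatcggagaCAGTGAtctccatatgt
Tfrc, chr16:32631711-32631738, plus strand: attatcgggaaCAGTGTttcccataatt

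The sequence in front of Mt1 and Mt2 is shown because their counts moved side by side on all days. The 2 genes lie next to each other on chromosome 8, with Mt2 at chr8:94172664-94173568 and Mt1 at chr8:94179082-94180327 on the same strand by GENCODE M21. The RefSeq start used below lies before the GENCODE start for Mt2 and after it for Mt1. RefSeq windows of 300 bases around the start (GRCm38.p6, 250 before and 50 after) were held for 7 of the 10 genes. The core of the metal-responsive element was searched as TGCACNC and TGCGCNC on both strands. The windows of Mt1, Mt2 and Slc30a1 held 3, 4 and 2 cores. Of 32851 windows of this length 25.7% held 1 or more, 7.11% held 2 or more, 1.97% held 3 or more and 0.517% held 4 or more. Of the other members with a window, 1 of the 2 windows of Tfrc held 2 cores, and those of Ftl1, Fth1 and Cp held none. The 250 bases before the start follow, with the cores in capitals.
Mt1, chr8:94178839-94179088, plus strand: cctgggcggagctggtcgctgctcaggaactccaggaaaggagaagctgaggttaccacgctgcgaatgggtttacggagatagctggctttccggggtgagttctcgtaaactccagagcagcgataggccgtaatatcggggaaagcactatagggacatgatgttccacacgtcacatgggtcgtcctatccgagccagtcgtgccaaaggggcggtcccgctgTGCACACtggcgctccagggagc
Mt2, chr8:94172368-94172617, plus strand: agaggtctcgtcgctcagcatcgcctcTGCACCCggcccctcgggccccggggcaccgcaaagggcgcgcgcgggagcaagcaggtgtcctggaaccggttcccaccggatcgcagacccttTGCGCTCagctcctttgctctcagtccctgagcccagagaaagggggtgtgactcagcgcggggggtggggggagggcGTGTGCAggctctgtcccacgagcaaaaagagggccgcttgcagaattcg
The remaining core of Mt2, GTGCGCA, lies just after its RefSeq start, 5 bases into the transcript, and is not in the stretch shown. The other 2 cores of Mt1 lie just after the RefSeq start, 3 and 21 bases into the transcript.
Mt1, chr8:94179089-94179117, plus strand: tcTGCACTCcgcccgaaaagTGCGCTCgg

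Per length, the ferritins and metallothioneins stood far above the transporters on every day. In the order of the sampled days (0, 2, 5, 10, 14), which is kept below wherever 5 values follow a gene, Ftl1 was at 17854, 17969, 16235, 7478 and 5923 TPM, and Fth1 at 1758, 6008, 13760, 7506 and 6800 TPM. On day 0 Mt1 and Mt2 followed with 715 and 636 TPM, then Tfrc with 57.1, Slc39a14 with 10.3, Slc30a1 with 3.39, Trf with 2.62, Cp with 1.84 and Slc40a1 with 0.21 TPM. The day 0 values of Trf, Cp and Slc40a1 rest on 3, 5 and 2 counts, so their order at the bottom is not resolved. On day 14 the order was Fth1, Ftl1, Mt1 and Mt2 (1101 and 978 TPM), then Trf with 61.7, Slc39a14 with 35.5, Cp with 34.9, Slc40a1 with 21.2, Tfrc with 10.3 and Slc30a1 with 9.69 TPM. Tfrc went from 5 in this order to 9, while Slc40a1 went from 10 to 8. On day 14 the pair Slc39a14 and Cp and the pair Tfrc and Slc30a1 differed by less than the counting error of either.

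**Figure D1:**
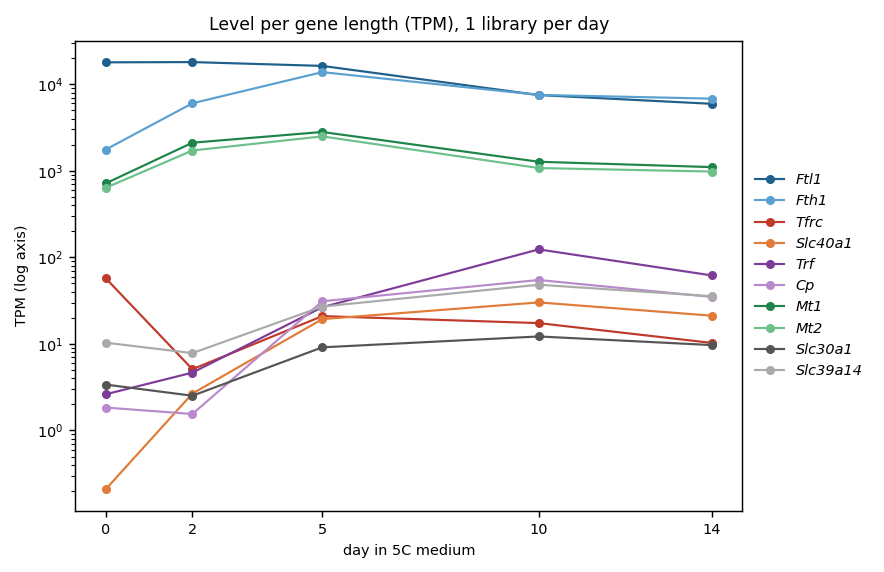
TPM (log axis) of the 10 genes against the day in 5C medium, 1 library per day, points joined by lines. Ftl1, Fth1, Mt1 and Mt2 lie above 600 TPM on every day, Tfrc goes from 57.1 to 10.3 TPM, and Slc40a1 goes from 0.21 to 21.2 TPM.

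Changes over time are given on normalized counts, which are expected counts divided by the TMM library size and brought to a common scale. A gene was called higher or lower where the log2 ratio to day 0, with a pseudocount of 1, passed 2-fold. The intervals are exact 95% Clopper-Pearson intervals of the count ratio without a pseudocount. They cover counting error only, not the spread between cultures, and reads without molecular identifiers are not independent molecules. In bulk RNA, fewer cells of a type and less RNA per cell cannot be told apart. All 10 genes passed the minimum of 10 counts in 1 or more libraries, and Slc40a1, Trf and Cp passed it only through the later days, where they were high. In the lists below, Slc30a2, Alas2, Lcn2, Ptprc and Alb had 0 counts on day 0 and 1 count on day 2. With the pseudocount this was enough for a call on day 2.

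On day 2, 6 of the 10 genes were over 2-fold higher than on day 0 and 1 was lower, beside 15.2% and 13.1% of the 13346 genes with 10 or more counts in 1 or more libraries (the kept genes). The numbers for day 5 were again 6 and 1, beside 20.2% and 13.6%. For day 10 they were 4 and 2, beside 28.7% and 22.3%, and for day 14 again 4 and 2, beside 24.5% and 19.9%. The median log2 change of the 10 genes was 1.72, 1.29, 0.81 and 0.68 on days 2, 5, 10 and 14, and that of all kept genes was -0.03, 0.05, 0.14 and 0.07. Without Slc40a1, Trf and Cp, which had under 10 counts on day 0, a count added after the data were seen, the other 7 members had 3, 3, 1 and 1 higher and 1, 1, 2 and 2 lower, and the shares of all genes with 10 or more counts in every library were 9.62%, 11.3%, 18.7% and 15.6% higher and 9.5%, 13.6%, 25% and 20.4% lower. With the TPM values the numbers of members higher and lower were 4 and 1, 8 and 1, 6 and 2, and 6 and 2, but these values moved the whole distribution. Of all kept genes 7.90%, 32.0%, 52.9% and 41.6% were then over 2-fold higher and 14.0%, 3.98%, 6.77% and 6.97% lower. The shift of the median of all genes against the TMM scale was -0.17, 0.56, 0.95 and 0.72 with TPM, and -0.13 on day 10 and -0.11 on day 14 with quantile normalization.

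**Figure D2:**
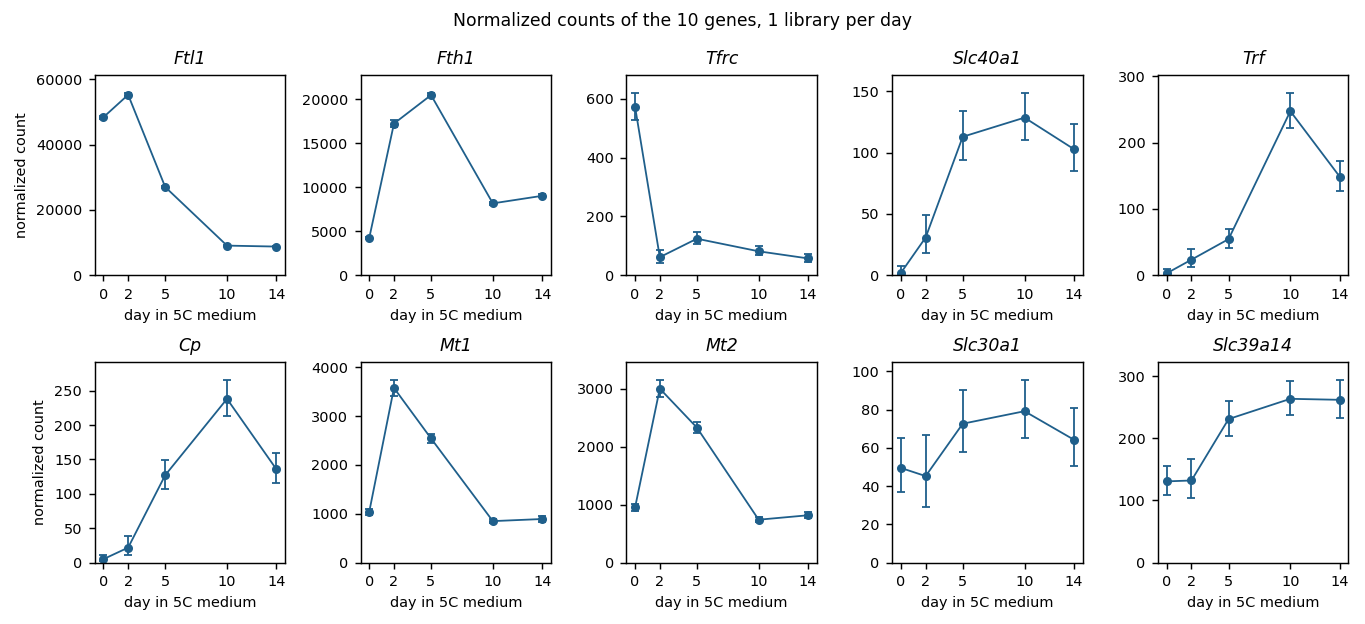
Normalized counts (linear axes starting at 0, each panel with its own scale) of the 10 genes against the day in 5C medium, with exact 95% counting intervals. Tfrc is highest on day 0 with 572, Ftl1, Mt1 and Mt2 are highest on day 2, Fth1 on day 5, and Slc40a1, Trf, Cp, Slc30a1 and Slc39a14 on day 10.

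The ferritin chains differed between days both in their ratio and in their sum. Ftl1, the light chain, stood at 48370, 55241, 27012, 9070 and 8776 normalized counts. Fth1, the heavy chain with the ferroxidase site, stood at 4243, 17222, 20453, 8159 and 9018. Ftl1 was near its day 0 level on day 2 and low from day 10, while Fth1 was above its day 0 level in all later libraries. Against day 0 Ftl1 was 5.33-fold lower on day 10 (interval 5.23 to 5.44) and 5.51-fold lower on day 14 (5.39 to 5.63). In the 4 later libraries Fth1 was 4.06-fold (3.92 to 4.21), 4.82-fold (4.67 to 4.98), 1.92-fold (1.86 to 1.99) and 2.13-fold (2.05 to 2.20) higher. Between days 5 and 10 both chains were lower by over 2-fold, Ftl1 by 2.98-fold and Fth1 by 2.51-fold, and between days 10 and 14 neither differed by over 2-fold.

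The ratio of Ftl1 to Fth1 counts was 11.4 (interval 11.1 to 11.8), 3.21 (3.13 to 3.28), 1.32 (1.30 to 1.34), 1.11 (1.08 to 1.14) and 0.973 (0.946 to 1.00). It was lower in each library than in the one before, and it is taken within each library, so no normalization between libraries enters. The day 0 ratio holds the Ftl1 count that chose the set, so its change from day 0 is a description. In TPM the ratio was 10.2, 2.99, 1.18, 0.996 and 0.871. The chains together took 1.37%, 1.78%, 1.60%, 0.621% and 0.592% of all counts. Reads shared with copies of ferritin could blur these values. Ftl1-ps1, the single listed gene with 90% identity to Ftl1 over 300 or more bases, had at most 6.65 counts. No listed gene matched Fth1 in this way, and the 6 listed Fthl17 genes, taken by symbol, were at 0. Copies that are not listed could not be checked, and their reads may be in these values.

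Ftl1, Fth1, Mt1 and Mt2 are shorter than 1000 bases, and short genes as a group were lower on the later days. The median log2 change of the 1232 kept genes under 1000 bases was 0.22, -0.83, -1.51 and -1.11 on days 2, 5, 10 and 14, and that of the 3004 genes over 4000 bases was -0.14, 0.34, 0.90 and 0.50. Relative to genes of its own length class, Ftl1 differed by -0.03, -0.01, -0.90 and -1.36 on the log2 scale, so that its call on day 10 was lost. By quantile normalization Ftl1 differed by -1.03 on day 2 and on day 5, which turned its direction on day 2 from 0.19. That method uses only the rank of a gene within its library, and Ftl1 ranked 1 by count on day 0 and 4 on days 2 and 5. Its share of all counts was 1.26% on day 0 and 1.35% on day 2. Fth1 relative to its length class differed by 1.80, 3.10, 2.46 and 2.19, and it was above its day 0 level on every later day under every scaling tried. On day 10 its log2 change was 0.94 on the TMM scale and 0.89 with DESeq2 size factors, both within 2-fold. As both ferritin genes are in the same length class, the class median cancels in their ratio.

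**Figure D3:**
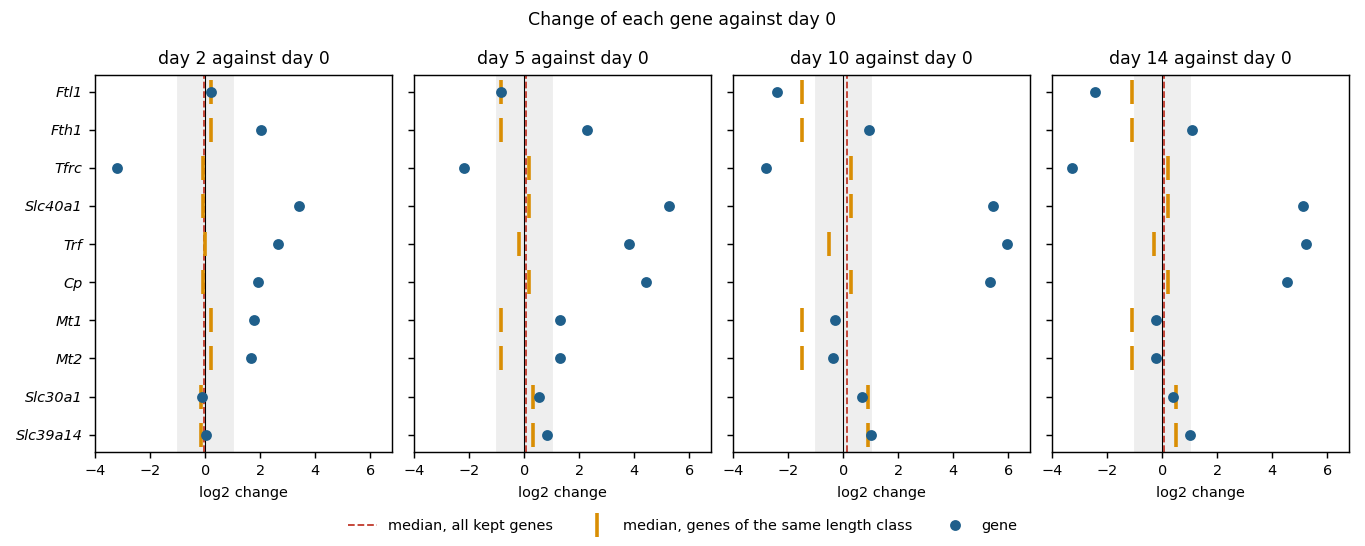
Log2 change (pseudocount 1) of each gene against day 0 on days 2, 5, 10 and 14. Points are the genes, the dashed line is the median of all kept genes, the upright ticks are the median of the kept genes in the same length class, and the grey band marks changes within 2-fold. On day 10 Ftl1 lies at -2.41 and its length class at -1.51, while Slc40a1, Trf and Cp lie above 5.

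**Figure D4:**
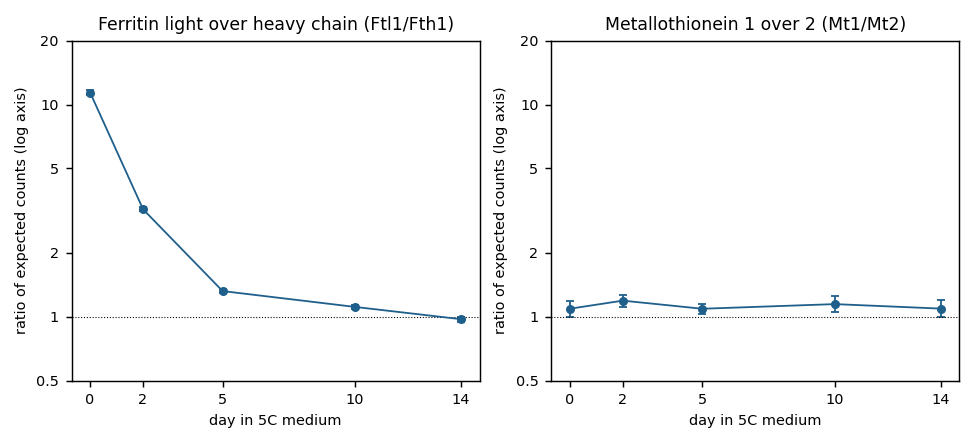
Ratio of expected counts within each library (log axis) against the day in 5C medium, with exact 95% counting intervals. The left panel shows Ftl1 over Fth1, which goes from 11.4 to 0.973, and the right panel Mt1 over Mt2, which stays between 1.09 and 1.19.

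Tfrc, through which transferrin-bound iron enters cells, was the single member that was over 2-fold lower on every later day. Its normalized counts were 572, 61.5, 124, 81.4 and 57.2, resting on 578, 34, 142, 114 and 64 expected counts. Day 0 stood above all the later libraries, and day 5 above the other 3 of them. In the 4 later libraries Tfrc was 9.31-fold (interval 6.58 to 13.6), 4.61-fold (3.83 to 5.57), 7.03-fold (5.74 to 8.67) and 10.0-fold (7.71 to 13.2) lower. The call held on all 4 days with TPM values, quantile normalization and length classes. Its log2 change lay between -3.25 and -2.77 on day 2 and between -3.52 and -2.37 on day 14 over all alternatives.
Of 12 proliferation genes 0 were over 2-fold lower on day 2 and 10 on day 14, beside 13.1% and 19.9% of all kept genes. Among the 10 were Ccnb1 (60.4 to 8.94 normalized counts), Cdk1 (169 to 28.6) and Top2a (193 to 35.5). The summed level of the list was 1294 on day 0 and 1576, 2189, 1505 and 452 on the later days. The part of cell division in the values of Tfrc was not tested.

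Slc40a1, the iron exporter ferroportin, moved the other way. Its normalized counts were 1.98, 30.8, 113, 128 and 103, from 2, 17, 129, 180 and 115 expected counts. The 2 counts on day 0 lie below the 3 that a count of 0 would allow, and every later library was higher. The ratio to day 0 was 15.5 (interval 3.69 to 139), 57.0 (15.5 to 476), 64.9 (17.7 to 540) and 51.9 (14.1 to 434) in the 4 later libraries. Between days 2 and 5 it was 3.67-fold higher (2.21 to 6.49), and between days 5 and 10 and between days 10 and 14 the interval of the ratio included 1. With a pseudocount of 5 the log2 change was 2.36 on day 2 and 4.26 on day 10, in place of 3.41 and 5.44, and with TPM values it was 1.60 and 4.69.

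Most markers of macrophages, cells known for high ferroportin and for recycling iron, were higher in the same libraries. Of 15 markers 15, 14, 12 and 11 were over 2-fold higher than on day 0 on days 2, 5, 10 and 14, beside 15.2%, 20.2%, 28.7% and 24.5% of all kept genes. Lower were 0, 1, 1 and 1, beside 13.1%, 13.6%, 22.3% and 19.9%. The lower marker was Itgam, with 61.9 normalized counts on day 0, 177 on day 2 and 17.6, 6.81 and 7.20 on days 5, 10 and 14. The summed level of the 15 markers was 311 on day 0 and 2459, 4193, 2562 and 1924 afterwards. Ptprc and Cd5l were at 0 on day 0. Cd5l reached 385 normalized counts on day 10, Mrc1 went from 1.98 to 124 on day 10, and C1qb from 6.93 to 121 on day 5. The part of these cells in the values of Slc40a1 and of the other members was not tested.

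**Figure D5:**
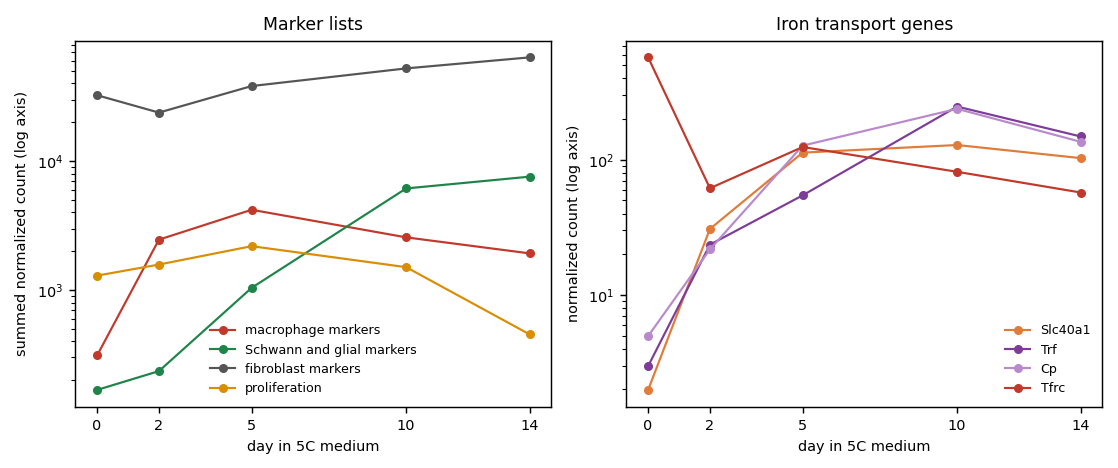
Left, summed normalized counts (log axis) of the marker lists for macrophages (15 genes), Schwann cells and glia (12), fibroblasts (10) and proliferation (12) by day. Right, normalized counts (log axis) of Slc40a1, Trf, Cp and Tfrc. The macrophage sum goes from 311 on day 0 to 4193 on day 5, the Schwann and glial sum from 168 to 7575 on day 14, and Slc40a1 from 1.98 to 128 on day 10.

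Trf and Cp, secreted proteins of the blood plasma made mainly by the liver, were near the limit of detection on day 0 and highest on day 10. Trf, the iron carrier, stood at 2.97, 23.5, 54.5, 248 and 149 normalized counts. Cp, the copper-bearing ferroxidase, stood at 4.95, 21.7, 127, 238 and 136. In both genes each library up to day 10 was above the one before, and day 14 was below day 10. The ratio of Trf to day 0, whose 3 counts are at the limit, was 7.92 (interval 2.18 to 43.3), 18.4 (5.97 to 91.0), 83.4 (28.3 to 407) and 50.0 (16.8 to 245) in the 4 later libraries. That of Cp was 4.39 (1.44 to 15.9), 25.7 (10.7 to 80.2), 48.1 (20.4 to 149) and 27.4 (11.5 to 85.8). On day 14 as against day 10, Trf was 1.67-fold lower (1.38 to 2.02) and Cp 1.76-fold lower (1.44 to 2.14). Trf and Cp were each other's nearest members, with a mean absolute difference of 0.67 in log2 change over the 4 days, all of which share the day 0 library.

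Trf lies at chr9:103204001-103230444 and overlaps the read-through gene Gm20425 on the same strand, to which 0, 0, 58.5, 146 and 149 counts were assigned. With both summed, an alternative added after the data were seen, the log2 changes of Trf in the last 3 libraries were 4.75, 6.47 and 6.16, in place of 3.81, 5.97 and 5.24. Cp, at chr3:19957054-20009145, overlaps Hps3 on the other strand. The library kit did not mark strand, so reads from the overlap cannot be told apart, and Hps3 held at most 92.5 counts. The length that RSEM gave went from 433 bases on day 0 to 1499 on day 2 for Trf and from 965 to 4086 for Cp. With TPM values the log2 change on day 2 was 0.64 in place of 2.63 for Trf and -0.16 in place of 1.93 for Cp, so that both calls were lost, while both genes were over 2-fold higher on the later days.

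Of 6 hepatocyte markers Ttr and Serpina1a were at 0 in all libraries, and Alb, the single one with 10 or more counts in any library, had 0, 1, 1, 5 and 12 counts and was over 2-fold higher on days 2, 10 and 14. Of 12 markers of Schwann cells and glia 5, 8, 12 and 12 were over 2-fold higher than on day 0 and 1, 0, 0 and 0 lower. Of all kept genes 15.2%, 20.2%, 28.7% and 24.5% were higher and 13.1%, 13.6%, 22.3% and 19.9% lower. The summed level of the 12 markers was 168 on day 0 and 235, 1040, 6136 and 7575 afterwards, highest on day 14, where Trf and Cp were below day 10. Sox10 went from 6.93 to 1993 normalized counts on day 14, Cdh19 from 3.96 to 1157 and Gjc3 from 0 to 274. The part of either cell type in the values of Trf and Cp was not tested. Erythroid markers were near 0, with Hba-a2 and Hbb-bt at 0 in all libraries, Hba-a1 with 10 counts on day 2 alone, and Alas2 with 29.9 counts on day 5.

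Mt1 and Mt2 were higher on the first days in 5C medium and back near the day 0 level by day 10. Mt1 stood at 1041, 3577, 2542, 848 and 892 normalized counts, and Mt2 at 955, 3005, 2332, 740 and 817. Days 2 and 5 were above the other 3 libraries in both genes. Mt1 was 3.44-fold higher on day 2 (interval 3.19 to 3.71) and 2.44-fold on day 5 (2.27 to 2.62). Mt2 was 3.15-fold higher on day 2 (2.90 to 3.41) and 2.44-fold on day 5 (2.27 to 2.63). Between days 5 and 10 the log2 change of Mt1 was -1.58 and that of Mt2 -1.65.

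The log2 change on days 10 and 14 was -0.30 and -0.22 for Mt1 and -0.37 and -0.22 for Mt2, within 2-fold, and its direction depended on the scale. It was 0.26 and 0.18 for Mt1 by quantile normalization, 0.83 and 0.62 with TPM values, and 1.22 and 0.88 relative to genes of the same length class. The pair took 0.0518%, 0.161%, 0.164%, 0.0573% and 0.0569% of all counts. The ratio of Mt1 to Mt2 counts was 1.09, 1.19, 1.09, 1.15 and 1.09, and the intervals of all 5 libraries overlapped. With a mean absolute difference of 0.05 in log2 change, Mt1 and Mt2 were closer than any other 2 members, the next being Slc30a1 and Slc39a14 with 0.35.

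Of the other metallothioneins, Mt3, the brain form, had at most 4 counts in any library, and Mt4, the form of stratified epithelia, was at 0. Mtf1, the zinc sensor that acts through metal-responsive elements, stood at 64.7, 67.6, 59.1, 82.5 and 83.0 normalized counts and was within 2-fold on every day. Whether it acts on the cores shown above was not tested.

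Slc30a1, the zinc exporter of the plasma membrane, changed little. It stood at 49.5, 45.2, 72.6, 79.2 and 64.3 normalized counts, on 25 to 111 expected counts, and was within 2-fold of day 0 in every library. On day 10 it was 1.60-fold higher (interval 1.14 to 2.28), which is 0.67 on the log2 scale against 0.90 for genes of its length class. On day 2, when Mt1 and Mt2 were over 3-fold higher, its ratio to day 0 was 0.914 (0.542 to 1.51). It overlaps the antisense gene 1700034H15Rik, which held at most 3.07 counts.

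Slc39a14, which imports zinc and iron not bound to transferrin, stood at 131, 132, 231, 264 and 262 normalized counts. Days 0 and 2 were level, and days 5, 10 and 14 were higher. It was 1.77-fold higher on day 5 (interval 1.43 to 2.20), 2.02-fold on day 10 (1.65 to 2.48) and 2.00-fold on day 14 (1.63 to 2.48), so that its log2 changes of 1.01 and 1.00 fall just inside and just outside the threshold. Relative to genes over 4000 bases long it differed by 0.48, 0.10 and 0.50 on these days.

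Among the other genes of iron uptake and export, 14 of 19 had enough counts, and 7, 7, 9 and 7 of them were over 2-fold higher and 2, 1, 2 and 2 lower on days 2, 5, 10 and 14. On these days 15.2%, 20.2%, 28.7% and 24.5% of all kept genes were higher and 13.1%, 13.6%, 22.3% and 19.9% lower. The median log2 change of these 14 was 0.65, 1.19, 1.89 and 1.26. Steap4, a metalloreductase of endosomes and the cell surface, went from 1.98 to 10.9, 449, 1240 and 792 normalized counts. Scara5, a receptor for ferritin, was at 0 on day 0 and at 257 and 178 normalized counts on days 10 and 14. Hfe, which binds the transferrin receptor, went from 8.99 to 147 and 223, and Heph, a membrane ferroxidase related to ceruloplasmin, from 9.90 to 111 and 129. Slc11a2, which moves iron out of endosomes after uptake by the receptor, was over 2-fold lower on day 2 alone, with 171 and 74.2 normalized counts on days 0 and 2. Hamp, the hormone hepcidin that removes ferroportin from the cell surface, was at 0 in all libraries.

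Of 6 kept genes of iron storage and sensing, 1, 2, 3 and 2 were over 2-fold higher and 1, 0, 0 and 0 lower. Ncoa4, which delivers ferritin for breakdown, stood at 36.0, 17.1, 196, 233 and 200 normalized counts, below day 0 on day 2 and above it on the other days. Fbxl5, which senses iron and removes Ireb2, stood at 88.1 on day 0 and between 207 and 295 afterwards. Of the iron regulatory proteins, Ireb2 was over 2-fold higher on day 10 alone (146 and 326 normalized counts), and Aco1 was within 2-fold on every day, between 154 and 315. Of the 9 genes whose mRNAs are known for iron-responsive elements, 4 of which are members, 3, 4, 3 and 3 were over 2-fold higher and 3, 1, 2 and 2 lower, with a median log2 change of -0.59, -0.16, 0.14 and -0.21. Beside both lists, 15.2%, 20.2%, 28.7% and 24.5% of all kept genes were higher and 13.1%, 13.6%, 22.3% and 19.9% lower.

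Of 17 kept genes of heme and iron-sulfur clusters, most were within 2-fold of day 0. On days 2, 5, 10 and 14, 5, 2, 1 and 0 were over 2-fold higher, beside 15.2%, 20.2%, 28.7% and 24.5% of all kept genes. Lower were 0, 2, 3 and 3, beside 13.1%, 13.6%, 22.3% and 19.9% of all kept genes. The median log2 change of the 17 genes was 0.65, 0.15, -0.43 and -0.30. Glrx5, which hands on iron-sulfur clusters in mitochondria, stood at 655, 704, 234, 87.8 and 122 normalized counts. Slc25a37, which brings iron into mitochondria, was at 167 on day 0 and 71.9 on day 14, and Iscu, the scaffold on which clusters form, at 311 and 175. Hmox1, which frees iron from heme, was within 2-fold on every day, between 388 and 1040.

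Among 6 kept zinc exporters besides Slc30a1, 2, 2, 3 and 1 were over 2-fold higher and 0 lower on any day. Slc30a2, among those higher on days 2, 5 and 10, had 0, 1, 7, 11 and 1 counts in the order of the sampled days. Slc30a4 stood at 82.1 on day 0 and between 188 and 242 normalized counts afterwards, Slc30a7 at 124 and 254 on days 0 and 10, and Slc30a5 between 128 and 182. Among 9 kept zinc importers besides Slc39a14, 0, 1, 1 and 1 were over 2-fold higher and 2, 1, 3 and 2 lower. Slc39a6 stood at 832 on day 0 and between 241 and 397 afterwards, Slc39a7, which releases zinc from the endoplasmic reticulum and Golgi, at 2023 on day 0 and 931 on day 14, and Slc39a10 at 62.3 and 153. Over these zinc importers the median log2 change was -0.21, 0.24, 0.22 and 0.19. Beside the exporters and importers, 15.2%, 20.2%, 28.7% and 24.5% of all kept genes were higher and 13.1%, 13.6%, 22.3% and 19.9% lower.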

How the data were processed

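Total RNA of 5 libraries, 1 per day, was measured. The authors deposited expected counts per gene, made with Bowtie and RSEM on mm10 per the submitters' processing notes (versions and annotation not given in the sources used here). Beside them the authors deposited TPM values and FPKM values, and FPKM was used for no result. Depth, which sets the counting intervals, is given in the report. Library sizes were computed with the TMM method of edgeR 4.0.16 (R 4.3.3) on rounded expected counts. A gene was kept if any library gave it at least 10 expected counts. Symbols and coordinates came from GENCODE M21 for 27247 of 27729 genes, and 1 of 171 listed symbols was unmatched. No test was possible. Named genes were all members, 8 fixed regulators and transporters, and, per list, the up to 3 genes that differed most between days 0 and 14 among those reaching 100 counts. Itgam, Fbln2, Thy1, Twist2, Slc30a2 and Lcn2 were named after their values were seen. The members and lists were chosen with earlier results of these data known. Lists of markers and pathways came from general knowledge. Alternatives were DESeq2 1.42.0 size factors, TPM, quantile normalization, length classes, a pseudocount of 5, whole numbers, a 4-fold threshold, other filters and summed ferritin copies. Copies found by blastn 2.17.0, library sizes without Gm42418 and Lars2, and Trf summed with Gm20425 joined them once the data were known. The computation was tested on simulated data. Python 3.11.15 was used with numpy 2.4.6, pandas 2.3.3, scipy 1.17.1 and matplotlib 3.10.9.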

Additional observations from a re-analysis of the deposited data

How the results depend on the processing

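The median log2 change of the 10 genes on days 2, 5, 10 and 14 was 0.33, 1.97, 1.84 and 1.49 with TPM values, 1.60 and 1.82 on days 2 and 5 by quantile normalization, 1.497, 2.12 and 1.18 on days 2, 5 and 10 relative to length classes, and 1.54 on day 2 with a pseudocount of 5. By quantile normalization 2 members (Ftl1 and Tfrc) were over 2-fold lower on day 2 and on day 5, relative to length classes 1 (Tfrc) was on day 10, and at a 4-fold threshold 3 (Fth1, Slc40a1 and Trf) were higher on day 2. With 10 or more counts in every library the share of all kept genes over 2-fold higher was 9.62%, 11.3%, 18.7% and 15.6% on the 4 days, and of the 7 members left 3, 3, 1 and 1 were higher. The change of Cp on day 2 was -0.16 with TPM values. The causes were not tested. The number of members called moved by over 1.5 times under no other alternative tried. No paired analysis was possible because each day has 1 library and no replicate number links the days. With 1 library per day no replicate could be left out. Depth limits the day 0 values of Slc40a1, Trf and Cp, which rest on 2 to 5 counts.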

Other observations

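Acute-phase genes, the group to which Cp belongs in the liver and whose inflammatory signals are known to raise Mt1, Mt2 and Slc39a14 there, were higher on the later days. Of 10 kept genes of this list 8, 8, 9 and 9 were over 2-fold higher and 0, 1, 1 and 1 lower on days 2, 5, 10 and 14, beside 15.2%, 20.2%, 28.7% and 24.5% of all kept genes higher and 13.1%, 13.6%, 22.3% and 19.9% lower. The median log2 change was 2.28, 5.45, 6.34 and 5.90. C3 stood at 1.98 normalized counts on day 0 and 881 and 1044 on days 10 and 14, Hp, which binds free hemoglobin, at 0.99, 192 and 281, and Saa3 at 0.99, 464 and 252. The day 0 values of these 3 genes rest on 1 or 2 counts. On days 2, 5, 10 and 14 the log2 change of Cp was 1.93, 4.43, 5.33 and 4.52. That of Mt1 was 1.78, 1.29, -0.30 and -0.22, and that of Mt2 was 1.65, 1.29, -0.37 and -0.22. For Slc39a14 it was 0.02, 0.82, 1.01 and 1.00. The part of inflammatory signals in the values of these members was not tested.

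Targets of the oxidative stress factor NRF2, a group known to include both ferritin genes, were in part higher on the early days. Of 10 genes 4, 6, 1 and 0 were over 2-fold higher and 0, 0, 1 and 1 lower, with a median log2 change of 0.29, 1.199, 0.43 and 0.18. Of all kept genes 15.2%, 20.2%, 28.7% and 24.5% were higher and 13.1%, 13.6%, 22.3% and 19.9% lower. Nqo1 stood at 62.3, 206, 255, 29.3 and 17.9 normalized counts in the order of the sampled days, with days 2 and 5 highest as for Mt1, Mt2 and Fth1. On day 2, Gclc, Gclm, Txnrd1 and Hmox1 were below their day 0 level, within 2-fold, with log2 changes from -0.82 to -0.05. On day 5 Gclc and Gclm were over 2-fold higher, with log2 changes of 1.24 and 1.17, and on days 10 and 14 both were within 2-fold. Gclc and Gclm were named after their values were seen. Txnrd1 lay between 403 and 712 and G6pdx between 161 and 305, both within 2-fold. The summed level of the list was 4026 on day 0 and 7372, 8120, 2887 and 3082 on the later days. Ftl1, the other ferritin gene, was highest on days 0 and 2. The part of NRF2 in the values of the members was not tested.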
